A study of Mus musculus with 4 samples.

Results

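The *Myc*, *Max* and *Mxd* network was followed here as 10 genes, *Myc*, *Mycn*, *Mycl*, *Max*, *Mxd1*, *Mxi1*, *Mxd3*, *Mxd4*, *Mnt* and *Mga*, out of 19938 genes on the array. A gene entered by its symbol: the platform annotation had to give a probe set exactly 1 symbol, and each of the 10 had 1 such probe set. The 10 were chosen with earlier results of these data known. Lung RNA came from C57BL/6 embryos at E18.5, the saccular stage just before birth. There were 2 arrays labelled *Hmga2* KO, from a line described as lacking the gene from soon after fertilization, and 2 arrays labelled WT, each named a biological replicate. Both WT titles carry the name WT1, so the labels do not settle whether the WT lungs came from separate embryos. Values are log2 RMA values, so that a difference of 1 is a doubling, and every difference is KO minus WT. The *Hmga2* probe set had 9.65 and 9.39 in the arrays labelled KO, against 9.35 and 9.59 in the WT arrays (difference 0.051, adjusted p = 0.892 from limma), so its signal did not set the genotypes apart. Its position relative to the altered part of the gene could not be read from the annotation, and directions hold for the arrays as labelled. WT replicate 1 stood apart: over all probe sets it correlated with the arrays labelled KO at r = 0.976 each, where WT replicate 2 did so at 0.994 and 0.992, and the 2 arrays labelled KO with each other at 0.997. The 2 WT arrays correlated with each other at 0.985. WT replicate 2 was thus closer to either array labelled KO than to WT replicate 1. For the network genes, the medians of most lists and some genes with a large gap between the WT arrays, values against each WT array alone are also given.

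MYC proteins are transcription factors that bind DNA only as a pair with MAX, mostly at the E-box sequence CACGTG, and there raise the transcription of genes for ribosomes, nucleotides and cell growth. MXD proteins, MNT and MGA compete for MAX and occupy the same kind of site with corepressors, so that the network is often described as a balance of MYC against MXD proteins. MYC proteins are typical of dividing cells, and most MXD proteins of cells that leave the cycle and differentiate. In the embryonic mouse lung, *Mycn* is known from the distal epithelium, where its loss reduces growth and branching.

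All 3 *Myc* genes had higher values in the arrays labelled KO with no overlap between the groups, as 17.6% of all genes had. None of the 3 passed the test over all genes. *Mycn*, the family member of embryonic progenitors, had 9.55 and 9.43 in the arrays labelled KO, against 8.17 and 8.96 in WT replicates 1 and 2. Both arrays labelled KO lay close together, and the WT arrays lay 0.79 apart. The group means were 9.49 ± 0.085 in KO and 8.57 ± 0.56 in WT (SD, n = 2 each), a 1.90-fold ratio. Its log2 difference was 0.93 (standard error 0.26, 95% interval 0.31 to 1.54, unadjusted p = 0.00985 and adjusted p = 0.182 from limma), the largest in size among the 10 genes. *Myc*, the founding member and a general driver of cell growth, had 10.34 and 10.22 in the arrays labelled KO, against 9.08 and 9.83 in WT replicates 1 and 2. The order of the arrays was that of *Mycn*, with WT replicate 1 lowest. Its means were 10.28 ± 0.088 in KO and 9.45 ± 0.53 in WT (SD, n = 2 each), with a difference of 0.83 (standard error 0.25, 95% interval 0.23 to 1.42, unadjusted p = 0.0138 and adjusted p = 0.208 from limma), a 1.77-fold ratio. *Mycl*, the third family member and generally the weakest activator, had 9.40 and 9.29 in the arrays labelled KO, against 8.96 and 9.16 in WT replicates 1 and 2. The gap between the groups was narrow. Its difference was 0.28 (standard error 0.14, 95% interval −0.049 to 0.62, adjusted p = 0.403 from limma).

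How large these differences were depended on the WT array. Against WT replicate 1 alone, the mean of the arrays labelled KO lay 1.32 higher for *Mycn* (2.50-fold), 1.20 higher for *Myc* (2.30-fold) and 0.38 higher for *Mycl* (1.30-fold). Against WT replicate 2 alone it lay 0.53 higher for *Mycn* (1.44-fold), 0.45 higher for *Myc* (1.37-fold) and 0.19 higher for *Mycl* (1.14-fold). The direction was the same against either array. In fits with a WT array left out, the lone WT array is assumed to vary as little as the arrays labelled KO. Such fits hold no variation among WT lungs, and calls over all genes rose in them, so their p values are not given for single genes. Without KO replicate 1 or 2, adjusted p lay at 0.936 or above for all 3 genes.

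**Figure D1:**
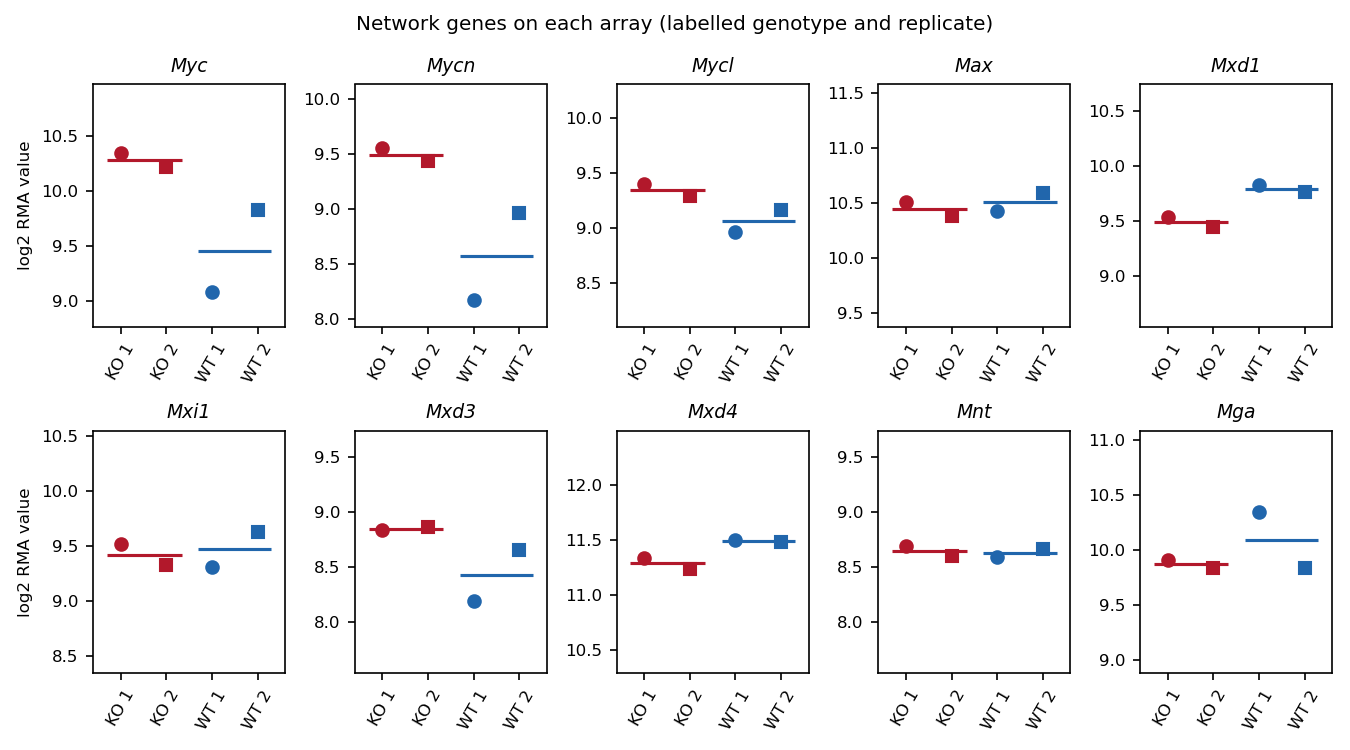
Each panel shows 1 gene of the network, with the log2 RMA value (vertical axis, with the same span in every panel) of the arrays labelled KO 1, KO 2, WT 1 and WT 2, and lines at the group means. Myc, Mycn, Mycl and Mxd3 lie higher in both arrays labelled KO with WT 1 lowest, Mxd1 and Mxd4 lie lower in both, and the groups of Max, Mxi1, Mnt and Mga overlap.

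The promoter of *Mycn* is shown because this gene had the largest difference and because its window held words known from regulators of the cell cycle and of WNT signaling. Windows of 300 bases, with 250 before the transcription start, came from RefSeq (GRCm38.p6) and were found for 9 of the 10 genes, all but *Myc*. They were searched on both strands for the E-box CACGTG, for the E2F words TTTCCCGC, TTTCGCGC, TTTGCCGC and TTTGGCGC, and for the TCF/LEF word CTTTGAA or its variants with the ending AT, TA or TT in place of AA. E2F factors drive genes of S phase, and TCF/LEF factors carry the signal of beta-catenin. Capitals mark the matches in the window of *Mycn* (chr12:12941787-12942086, minus strand of the chromosome, printed 5′ to 3′ in the direction of the gene).
Mycn: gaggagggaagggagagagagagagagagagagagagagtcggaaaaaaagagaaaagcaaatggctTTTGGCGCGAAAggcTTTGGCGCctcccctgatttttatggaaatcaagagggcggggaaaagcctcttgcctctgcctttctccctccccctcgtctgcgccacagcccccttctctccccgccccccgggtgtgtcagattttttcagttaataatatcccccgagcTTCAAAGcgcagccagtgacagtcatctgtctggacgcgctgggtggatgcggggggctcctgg

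Counted from 1 at the 5′ end, TTTGGCGC stood at bases 68 to 75 and again at bases 83 to 90 of the *Mycn* window. A match of TTTCGCGC on the opposite strand, bases 72 to 79, overlapped the first of these, and a match of CTTTGAA on the opposite strand lay at bases 237 to 243. Of 32851 windows in the table, 2.26% held an E2F word, 16.9% a TCF/LEF word and 7.15% the E-box. TTTGGCGC stood at least 2 times in 2 windows of the table, a count (0.00609%) made after the pair in *Mycn* was seen. No other member's window held an E2F or a TCF/LEF word.

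The E-box, the site that the network itself binds, was found in the windows of *Max*, *Mxd4* and *Mnt*, which are shown for that reason with the E-box in capitals. It stood at bases 248 to 253 in *Max* (chr12:76962199-76962498, minus strand), at bases 32 to 37 in *Mxd4* (chr5:34187661-34187960, minus strand) and at bases 128 to 133 in *Mnt* (chr11:74830674-74830973, plus strand). A match is a description of the letters, not evidence of binding.
Max: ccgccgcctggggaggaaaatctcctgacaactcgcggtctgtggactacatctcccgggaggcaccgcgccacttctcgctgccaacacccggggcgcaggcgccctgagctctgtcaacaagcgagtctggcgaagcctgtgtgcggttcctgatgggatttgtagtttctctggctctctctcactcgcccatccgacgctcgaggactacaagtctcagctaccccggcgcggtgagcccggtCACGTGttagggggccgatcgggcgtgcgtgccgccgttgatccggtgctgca
Mxd4: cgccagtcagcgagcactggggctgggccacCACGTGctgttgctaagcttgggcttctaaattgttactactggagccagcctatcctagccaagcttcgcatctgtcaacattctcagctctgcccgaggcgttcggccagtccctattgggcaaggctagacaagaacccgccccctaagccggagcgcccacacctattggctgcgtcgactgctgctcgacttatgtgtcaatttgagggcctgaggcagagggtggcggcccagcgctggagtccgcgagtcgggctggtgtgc
Mnt: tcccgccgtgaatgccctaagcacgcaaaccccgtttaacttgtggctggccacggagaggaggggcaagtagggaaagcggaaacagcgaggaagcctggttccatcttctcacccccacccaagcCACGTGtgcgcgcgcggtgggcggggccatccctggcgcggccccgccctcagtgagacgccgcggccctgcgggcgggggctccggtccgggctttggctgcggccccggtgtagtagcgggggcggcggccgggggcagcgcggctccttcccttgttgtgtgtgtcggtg

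*Max*, the shared partner of all these proteins, did not separate the genotypes. It had 10.51 and 10.38 in the arrays labelled KO, against 10.43 and 10.59 in WT replicates 1 and 2. The groups overlapped, and the difference was −0.062 (standard error 0.14, 95% interval −0.39 to 0.27, adjusted p = 0.845 from limma). Against WT replicate 1 alone it was 0.019, and against WT replicate 2 alone −0.14.

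The *Mxd* genes went both ways, and none passed the test. *Mxd3*, the MXD gene that is transcribed in S phase of dividing cells, had 8.83 and 8.86 in the arrays labelled KO, against 8.19 and 8.65 in WT replicates 1 and 2. It was the only *Mxd* gene with higher values in both arrays labelled KO, and it shared with *Myc* and *Mycn* the low value in WT replicate 1. Its means were 8.85 ± 0.020 in KO and 8.42 ± 0.33 in WT (SD, n = 2 each), with a difference of 0.43 (standard error 0.18, 95% interval −0.0048 to 0.86, unadjusted p = 0.0519 and adjusted p = 0.350 from limma). It was 0.66 against WT replicate 1 alone and 0.19 against WT replicate 2 alone. *Mxd1*, the MAD1 protein of differentiating cells, had 9.53 and 9.44 in the arrays labelled KO, against 9.82 and 9.76 in WT replicates 1 and 2. Here the WT arrays lay close together, and both arrays labelled KO lay below them. Its means were 9.49 ± 0.068 in KO and 9.79 ± 0.044 in WT (SD, n = 2 each), with a difference of −0.30 (standard error 0.13, 95% interval −0.61 to 0.0043, unadjusted p = 0.0524 and adjusted p = 0.351 from limma), a 0.811-fold ratio. *Mxd4*, another MXD repressor that is linked to cells leaving the cycle, had 11.34 and 11.24 in the arrays labelled KO, against 11.50 and 11.48 in WT replicates 1 and 2. The groups did not overlap, and the difference was −0.20 (standard error 0.13, 95% interval −0.51 to 0.10, adjusted p = 0.491 from limma). Unlike the *Myc* genes, *Mxd1* and *Mxd4* had nearly the same difference against either WT array, −0.33 and −0.27 for *Mxd1* and −0.21 and −0.19 for *Mxd4* against WT replicates 1 and 2. *Mxi1*, which encodes the repressor MXI1, had 9.51 and 9.33 in the arrays labelled KO, against 9.31 and 9.63 in WT replicates 1 and 2. These groups overlapped, and the difference was −0.047 (standard error 0.16, 95% interval −0.43 to 0.34, adjusted p = 0.904 from limma), 0.11 against WT replicate 1 alone and −0.21 against WT replicate 2 alone.

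The large partners of MAX overlapped between the genotypes. *Mnt*, a widely expressed antagonist of MYC, had 8.68 and 8.59 in the arrays labelled KO, against 8.59 and 8.66 in WT replicates 1 and 2. Its difference was 0.011 (standard error 0.13, 95% interval −0.30 to 0.32, adjusted p = 0.974 from limma), and the sign turned with cyclic loess normalization (−0.0052). *Mga*, a repressor that carries both an E-box binding domain and a T-box domain, had 9.91 and 9.83 in the arrays labelled KO, against 10.34 and 9.83 in WT replicates 1 and 2. Only WT replicate 1 stood out, on the high side, where *Myc*, *Mycn* and *Mxd3* were low. The difference was −0.22 (standard error 0.19, 95% interval −0.67 to 0.24, adjusted p = 0.605 from limma). It was −0.47 against WT replicate 1 alone and 0.039 against WT replicate 2 alone.

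Across the network, 0 of 10 genes passed limma's test in either direction, where 0.0802% of all genes (16) passed with a higher and 0.702% (140) with a lower value in KO. With cyclic loess normalization, 70 genes passed as higher and 265 as lower. An unadjusted p under 0.05 was found for 2 of 10 on the higher side (*Mycn* and *Myc*), against 5.88% of all genes, and for 0 of 10 on the lower side, against 8.58%. Both arrays labelled KO lay above both WT arrays for 4 of 10 genes, against 17.6% of all genes, and below them for 2 of 10, against 31.8%. By role, 3 of 3 *Myc* genes and 1 of 4 *Mxd* genes lay above, and 2 of 4 *Mxd* genes lay below. The median difference over the 10 genes was −0.018, beside −0.051 over all genes, of which 8205 had a higher mean in KO and 11733 a lower one. With 2 arrays against 2, an exact permutation test cannot give a two-sided p under 0.333.

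**Figure D2:**
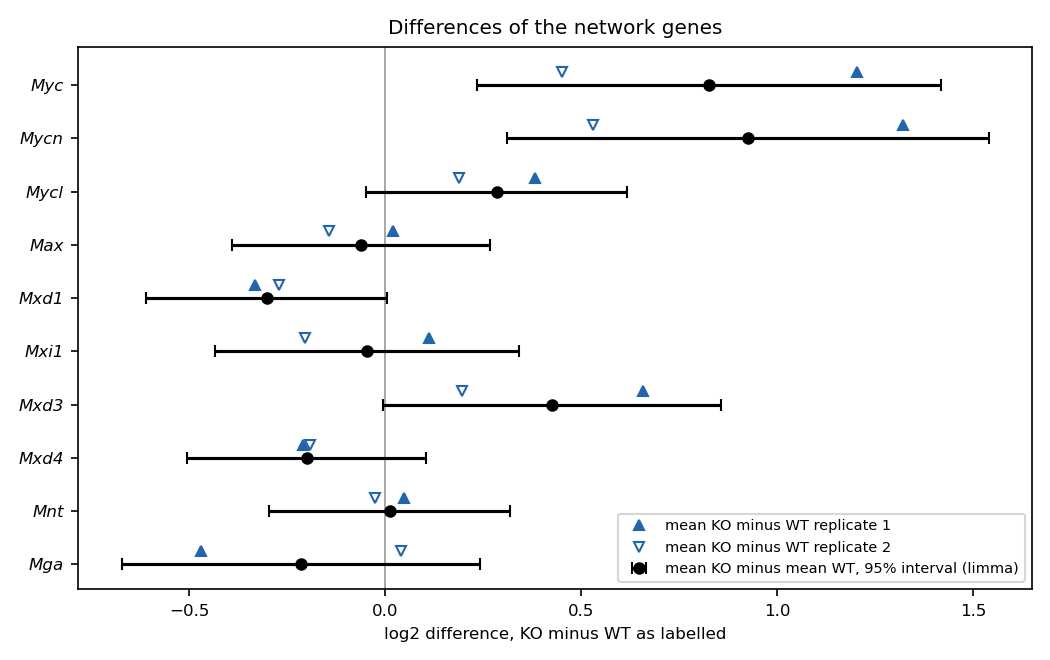
The log2 difference KO minus WT (horizontal axis) is shown for each gene of the network as a black point with its 95% interval from limma, beside the mean of the arrays labelled KO minus WT replicate 1 (filled triangle) and minus WT replicate 2 (open triangle). The intervals of Myc and Mycn lie above 0, the triangles of Mycn are at 1.32 and 0.53, and those of Mxd1 and Mxd4 nearly coincide.

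*Foxm1*, *Nsl1* and *Fbxo5* were the genes with the pattern most like that of *Mycn*, measured as the root mean square distance over the 4 arrays between values centred on each gene's mean (0.0060, 0.017 and 0.020 log2 units). *Foxm1*, a transcription factor of G2 and M phase, had 10.51 and 10.40 in the arrays labelled KO, against 9.15 and 9.94 in WT replicates 1 and 2. *Nsl1* encodes a kinetochore protein and *Fbxo5* the inhibitor EMI1 of the anaphase-promoting complex, and their differences were 0.90 and 0.91. Within the network *Myc* was nearest to *Mycn*, at a distance of 0.051 and in place 31 among all other genes, followed by *Mxd3* at 0.28 and *Mycl* at 0.38. *Mga*, at 0.73, was the farthest. With 4 arrays such distances describe the arrays alone.

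Genes whose proteins work with the network mostly had higher means in the arrays labelled KO, and none passed the test. Of 13 measured coactivators of MYC, which open chromatin or release paused polymerase, 10 lay higher on average in the arrays labelled KO and 3 lay lower (median difference 0.27), and 1 had an unadjusted p under 0.05. This was *Kat2a*, a histone acetyltransferase, with 0.37 (standard error 0.14, adjusted p = 0.319 from limma). *Ruvbl1*, an ATPase of chromatin complexes, had 0.46 (adjusted p = 0.396), and *Trrap*, the scaffold that MYC binds, had −0.070 (adjusted p = 0.889). Of 13 measured corepressors of MXD proteins and MNT, 12 had a higher mean, with a median of 0.25, and 2 had an unadjusted p under 0.05. *Hdac2*, a histone deacetylase, had 0.42 (adjusted p = 0.268), and *Rbbp4*, a histone chaperone in the same complex, 0.37 (adjusted p = 0.332). *Sin3a*, the scaffold that MXD proteins contact, had 0.30 (adjusted p = 0.358).

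MGA acts in a polycomb complex, PRC1.6, which represses germline genes. All 13 measured genes of that complex had a higher mean in the arrays labelled KO, although *Mga* itself did not, with a median of 0.35. For 9 of them both arrays labelled KO lay above both WT arrays (17.6% of all genes), and 4 had an unadjusted p under 0.05 on the higher side (5.88% of all genes). *Pcgf6*, its specific polycomb subunit, had 9.57 and 9.31 in the arrays labelled KO, against 8.32 and 9.05 in WT replicates 1 and 2. Its difference was 0.75 (standard error 0.25, adjusted p = 0.249 from limma), 1.12 against WT replicate 1 alone and 0.39 against WT replicate 2 alone. *Cbx3* and *Cbx1*, which encode heterochromatin proteins, had 0.51 and 0.36 (adjusted p = 0.219 and 0.274). *Wdr5*, *Hdac1* and *Hdac2* stand in this list and in 1 of the lists above. The genes of the MLX branch, whose proteins answer to glucose metabolites, had −0.19 for *Mlxip*, −0.19 for *Mlx* and 0.083 for *Mlxipl*, with an adjusted p of 0.551 or above.

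Regulators of MYC protein turnover went both ways. Of 12 measured genes, 7 lay higher on average in the arrays labelled KO and 5 lay lower (median difference 0.084, but 0.18 and 0.14 against WT replicates 1 and 2 alone). None passed the test, and an unadjusted p under 0.05 was reached by 4 on the higher and 2 on the lower side. Of all genes, 5.88% and 8.58% reached it on these sides. *Plk1*, a mitotic kinase, had 1.29 (standard error 0.36, adjusted p = 0.186 from limma), 1.90 against WT replicate 1 alone and 0.68 against WT replicate 2 alone. *Cip2a*, an inhibitor of the phosphatase PP2A that protects MYC, had 1.10 (standard error 0.23, adjusted p = 0.109). *Skp2*, which encodes an F-box protein that ubiquitinates MYC, had 10.66 and 10.49 in the arrays labelled KO, against 9.26 and 9.88 in WT replicates 1 and 2 (adjusted p = 0.111). *Aurka*, the kinase that stabilizes MYCN, had a difference of 0.997 (adjusted p = 0.207), 1.46 against WT replicate 1 alone and 0.53 against WT replicate 2 alone. In contrast *Fbxw7*, the main ubiquitin ligase of MYC and MYCN, had −0.10 (standard error 0.17, adjusted p = 0.786), and *Gsk3b*, the kinase that marks them for it, −0.013 (adjusted p = 0.972). The values of *Fbxw7* were dim, each below the median of its array. Its difference was −0.32 against WT replicate 1 alone and 0.11 against WT replicate 2 alone. *Set*, another inhibitor of PP2A, had 6.19 and 6.06 in the arrays labelled KO, against 6.67 and 6.44 in the WT arrays. Its difference was −0.43 (adjusted p = 0.254). These values were dim, below the array medians of 7.91 to 8.02. Without the dimmest 40 percent of genes, the median of the list was 0.14. *Ppp2r5a*, a subunit of PP2A, had −0.33 (adjusted p = 0.308).

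Genes known as MYC targets had higher means in the arrays labelled KO nearly throughout. All 21 measured targets of ribosome biogenesis had a higher mean, with a median difference of 0.47, and for 20 of them both arrays labelled KO lay above both WT arrays (17.6% of all genes). None passed the test over all genes, and 11 had an unadjusted p under 0.05 on the higher side (5.88% of all genes). *Nop58* and *Nop56*, the core proteins of box C/D particles in the nucleolus, had 0.80 and 0.75 (standard error 0.19 and 0.20, adjusted p = 0.132 and 0.173 from limma). *Dkc1*, the pseudouridine synthase dyskerin, had 0.84 (adjusted p = 0.190), and *Mybbp1a*, a nucleolar protein, 0.49 (adjusted p = 0.222). Of 20 measured targets of metabolism and translation, 19 had a higher mean (median difference 0.50). None passed the test, and an unadjusted p under 0.05 was reached by 10 on the higher and 1 on the lower side (5.88% and 8.58% of all genes). *Odc1*, the first enzyme of polyamine synthesis and a classic MYC target, had 9.94 and 9.89 in the arrays labelled KO, against 8.48 and 9.35 in WT replicates 1 and 2. Its difference was 0.996 (standard error 0.27, adjusted p = 0.178 from limma). *Cad*, which starts pyrimidine synthesis, had 9.60 and 9.56 in the arrays labelled KO, against 8.91 and 8.97 in the WT arrays. Here the WT arrays lay close together, and the difference was 0.65 (standard error 0.13, adjusted p = 0.0882). *Apex1*, a DNA repair enzyme, and *Hspd1*, a mitochondrial chaperonin, had 0.70 and 0.59 (adjusted p = 0.166 and 0.170). The lower one was *Hk2*, a hexokinase of glycolysis, with −0.39 (adjusted p = 0.228). *Hk2* was named after its value was seen, and *Ldha*, lactate dehydrogenase, had 0.022 (adjusted p = 0.951).

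Genes that MYC is known to repress, often through the factor MIZ1, went both ways. Of 12 measured, 7 lay lower on average in the arrays labelled KO and 5 lay higher (median difference −0.22, and −0.13 and −0.30 against WT replicates 1 and 2 alone). In 7 both arrays labelled KO lay below both WT arrays (31.8% of all genes) and in 5 above them (17.6% of all genes). *Cdkn2b*, the CDK inhibitor p15 and the best known gene of this kind, fell, with 8.87 and 8.74 in the arrays labelled KO, against 9.77 and 9.87 in the WT arrays. The difference was −1.01 (standard error 0.13, adjusted p = 0.0326 from limma). The call was lost without KO replicate 1, where 1 gene of all was called, and without KO replicate 2, where 0 were called and 968 had an unadjusted p under 0.05. *Ndrg1*, named for its downregulation by N-MYC, had 10.67 and 10.58 in the arrays labelled KO, against 10.96 and 11.15 in the WT arrays. Its difference was −0.43 (standard error 0.14, adjusted p = 0.228). The CDK inhibitors *Cdkn1c* and *Cdkn2c* lay on the other side, with 0.48 and 0.56 (adjusted p = 0.208 and 0.356).

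**Figure D3:**
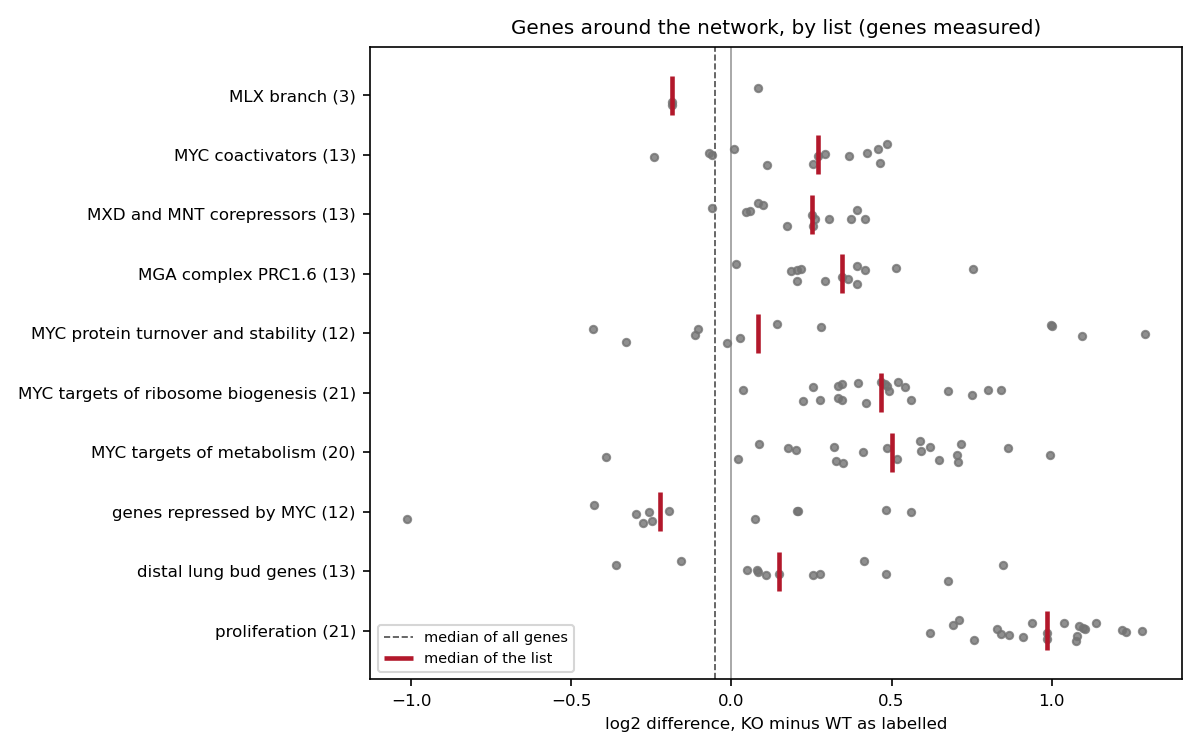
A point stands for 1 gene of the list named at the left (number of genes in brackets), placed at its log2 difference KO minus WT (horizontal axis, vertical scatter only to separate points), with a red bar at the median of the list and a dashed line at the median of all genes, −0.051. The medians of both lists of MYC targets lie at 0.47 and 0.50, that of proliferation at 0.99 and that of genes repressed by MYC at −0.22.

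Genes of cell division moved with the *Myc* genes and their targets from array to array. Of 21 measured proliferation genes, all lay above both WT arrays in both arrays labelled KO (17.6% of all genes), with a median difference of 0.99. On the higher side 1 passed the test (0.0802% of all genes), *Hells*, a chromatin remodeler (difference 1.22, adjusted p = 0.0258 from limma). An unadjusted p under 0.05 on that side was found for 21 (5.88% of all genes). As the mean over the list of values centred on each gene's mean, proliferation genes stood at 0.55 and 0.42 in the arrays labelled KO, against −0.85 and −0.12 in WT replicates 1 and 2. Targets of ribosome biogenesis stood at 0.30 and 0.16 in the arrays labelled KO, against −0.42 and −0.032, and targets of metabolism at 0.27 and 0.18, against −0.42 and −0.031 in WT replicates 1 and 2. All of these lists thus had WT replicate 1 lowest and WT replicate 2 between it and the arrays labelled KO, as *Mycn*, *Myc*, *Mycl* and *Mxd3* had. Against WT replicate 1 and WT replicate 2 alone, the median differences were 1.33 and 0.61 for proliferation, 0.64 and 0.28 for targets of ribosome biogenesis, 0.66 and 0.26 for targets of metabolism, 0.41 and 0.17 for PRC1.6, 0.41 and 0.095 for coactivators and 0.38 and 0.051 for corepressors. The part of cell division in the values of the network genes was not tested.

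**Figure D4:**
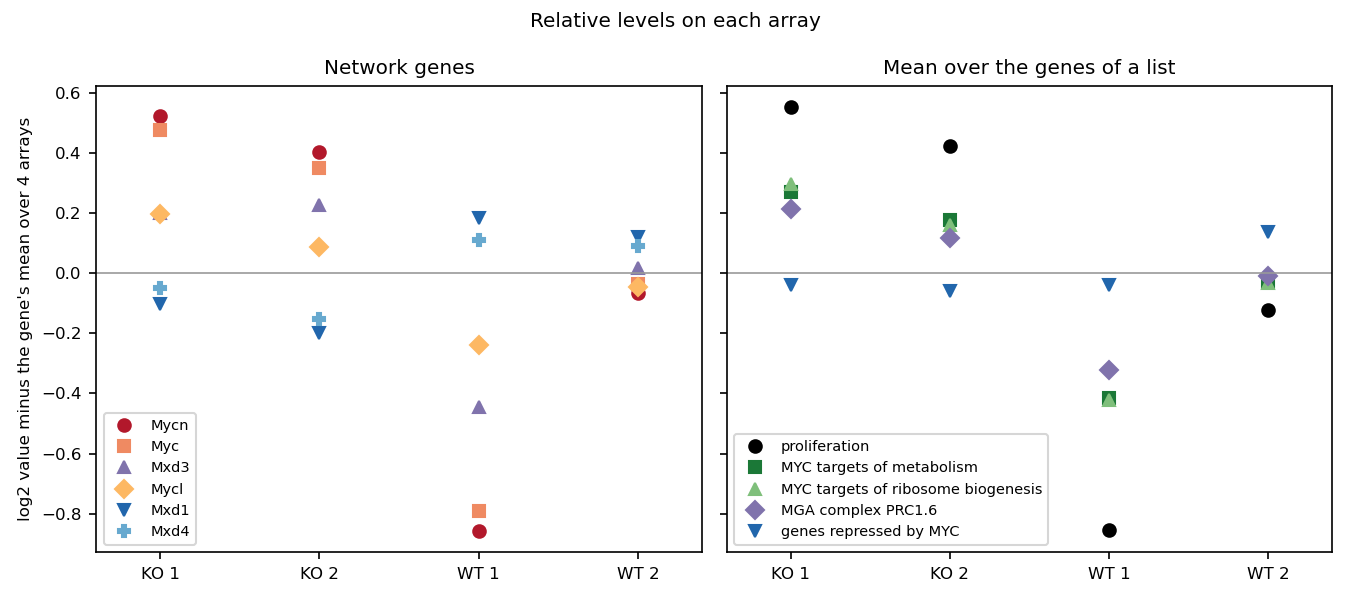
Values centred on the mean of each gene across the 4 arrays (vertical axis, log2 units) are shown on the arrays labelled KO 1, KO 2, WT 1 and WT 2, for 6 single genes of the network (left) and as the mean over the genes of 5 lists (right). Myc, Mycn, Mycl, Mxd3, proliferation genes, both lists of MYC targets and PRC1.6 genes are lowest in WT 1, where proliferation stands at −0.85, and Mxd1 and Mxd4 lie above 0 in both WT arrays.

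Genes of the distal lung bud, the tissue in which *Mycn* is known to act, did not pass the test. Of 13 measured, 11 had a higher mean, with a median of 0.15 that was 0.28 against WT replicate 1 alone and 0.054 against WT replicate 2 alone. For 6 of the 13 both arrays labelled KO lay above both WT arrays and for 2 below (17.6% and 31.8% of all genes). On the higher side 3 had an unadjusted p under 0.05 (5.88% of all genes). *Sox9*, a factor of distal progenitors, had 0.85 (adjusted p = 0.149 from limma), 1.14 against WT replicate 1 alone and 0.56 against WT replicate 2 alone. *Foxp2*, a forkhead factor of the lung epithelium, had 11.39 and 11.36 in the arrays labelled KO, against 10.66 and 10.74 in the WT arrays. Its difference was 0.68 (standard error 0.13, adjusted p = 0.0825), and that of *Etv5*, a factor downstream of FGF signaling, was 0.41 (adjusted p = 0.232). *Lin28b* lay on the other side, with 5.27 and 4.95 in the arrays labelled KO, against 5.43 and 5.51 in the WT arrays. Its difference was −0.36 (adjusted p = 0.360 from limma), at dim values below the median of each array.

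Of the markers of cell types, 4 passed the test, all lower in the arrays labelled KO. Calls over all genes were also mostly lower, with 140 lower (0.702%) and 16 higher (0.0802%). All 8 alveolar type II markers averaged lower in the arrays labelled KO than in WT and 3 fell (*Sftpd*, *Lamp3* and *Sftpa1*). The median difference was −0.695, from −3.07 for *Sftpd* to −0.096 for *Sftpc* (adjusted p = 0.728 from limma). The mean log2 value of the list, in which *Sftpd* weighs most, was 11.66 and 11.67 in the arrays labelled KO, against 12.71 and 12.63 in the WT arrays. Of 8 leukocyte markers 7 had a lower mean, and only *Lyz2* passed the test. The list mean was 8.89 and 8.72 in the arrays labelled KO, against 9.16 and 9.54 in WT replicates 1 and 2. For 6 of the 8 both arrays labelled KO lay below both WT arrays (31.8% of all genes). *Cd74* had 8.45 and 10.27 in WT replicates 1 and 2, with a difference of 0.0032. *Laptm5* had 0.093 against WT replicate 1 alone and −0.73 against WT replicate 2 alone. Of 7 endothelial markers 6 had a lower mean, 0 passed limma's test and 3 had an unadjusted p under 0.05 on the lower side (8.58% of all genes). Epithelial and mesenchymal markers had median differences of 0.017 and 0.071, and 0 passed. The 7 epithelial markers ran from −0.42 for *Muc1*, a mucin (adjusted p = 0.208 from limma), to 0.69 for *Epcam*, an adhesion protein (adjusted p = 0.178), both with an unadjusted p under 0.05. All 3 measured erythroid markers had a lower mean and 0 passed, with a median of −0.10 and the lowest value, −0.66, for *Alas2*, the heme synthesis enzyme of red cells (adjusted p = 0.0873). In whole lung, fewer cells of a type and less RNA per cell cannot be told apart, and the part of cell composition in the values of the network genes was not tested.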

How the data were processed

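RNA of E18.5 mouse lung was hybridised to Affymetrix arrays, 1 array per sample. The authors deposited log2 values for 30177 probe sets, obtained by RMA (background correction, quantile normalization and summary over probes). The submitters' processing notes name Affymetrix Expression Console, with no version. The values come without detection calls. Apart from *Set*, *Fbxw7* and *Lin28b* beside the array medians, levels of different probe sets were not compared. Precision is limited by having 4 arrays.

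The platform annotation gave 1 symbol for 21789 probe sets, several for 1621 and none for 6767. The brightest probe set stood for each of 19938 genes. All 10 network genes matched RefSeq by Entrez ID. Arrays were grouped by the genotype in their titles and tested by limma 3.58.1 under R 4.3.3 (lmFit, then eBayes with no trend; 2 residual and 4.42 prior degrees of freedom). Benjamini-Hochberg adjustment covered all genes, with a threshold of 0.05. The p values measure the spread between these samples, which may be technical. No set test was made. Lists are described by counts and medians, and some also by means over their genes.

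The members and lists were chosen with earlier results of these data known. Named genes are the members, *Hmga2*, up to 4 genes of each list with the smallest p, the 3 genes nearest to *Mycn*, and others chosen after their values were seen (*Trrap*, *Fbxw7*, *Gsk3b*, *Set*, *Ppp2r5a*, *Hk2*, *Ldha* and the markers). Lists leave out genes that are not analysed here. Same-numbered arrays deviated from their group means with a correlation of −0.238 across genes, so the replicate numbers were not taken as pairs. Alternatives were centring on array medians, cyclic loess, a filter on the dimmest 40 percent of genes, averaging a gene's probe sets, eBayes with trend and robust, the replicate block and leaving out each array. A crossed pairing was added after the values were seen. The code was tested on simulated data. Figures were drawn with matplotlib 3.10.9.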

Additional observations from a re-analysis of the deposited data

How the results depend on the processing

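No network gene crossed the threshold with the arrays centred on their medians, with cyclic loess, without the dimmest 40 percent of genes, with the mean of all probe sets or with trend and robust, and directions held there except that of *Mnt*, which had −0.0052 with cyclic loess. As each network gene had 1 probe set, other probe sets could not be tried. Of all genes, 156 were called, and 335 with cyclic loess, 301 without the dimmest 40 percent, 602 with the replicate block and 512 with the crossed pairing. With the replicate block, 1 network gene was called, *Mycn* (difference 0.93, adjusted p = 0.0460), and with the crossed pairing none, with an adjusted p of 0.0657 for *Mycn*. Over all alternatives that keep the 4 arrays, adjusted p from limma ran from 0.0460 to 0.187 for *Mycn* and from 0.0738 to 0.213 for *Myc*. The numbers do not pair the samples, and the block changed no other network gene's call.

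Leaving out each array in turn, called genes ran from 0 to 6292 and called network genes from 0 to 5, and their median difference from −0.080 to 0.080. The differences ran from 0.53 to 1.32 for *Mycn*, 0.45 to 1.20 for *Myc*, 0.19 to 0.38 for *Mycl*, −0.14 to 0.019 for *Max*, −0.35 to −0.26 for *Mxd1*, −0.21 to 0.11 for *Mxi1*, 0.19 to 0.66 for *Mxd3*, −0.25 to −0.15 for *Mxd4*, −0.034 to 0.056 for *Mnt* and −0.47 to 0.039 for *Mga*. Among these fits, network genes were called only with a lone WT array, where calls over all genes also rose. Counts for the lists moved in the same way, from 0 to 17 genes called higher for targets of ribosome biogenesis, 0 to 15 for targets of metabolism and 0 to 21 for proliferation over all alternatives. In every fit with an array left out, of either genotype, the lone array's group holds no variation of its own. The cause of these shifts was not tested.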
